A study of Homo sapiens with 9 samples.

Results

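The promoters examined here were those of the cytosolic ribosomal protein genes, the genes for the protein components of the ribosome outside mitochondria. They were chosen by name as the protein-coding GENCODE genes on chromosomes 1 to 22 called RPL or RPS followed by a number, with an optional A, B or X, together with RPLP0, RPLP1, RPLP2 and RPSA. Names with an L after the number and the RPS6K kinases were left out. The rule gave 73 genes of 19229 protein-coding genes, of which 43 encode proteins of the large ribosomal subunit and 30 proteins of the small subunit. A gene had a peak when any part of an accessible region lay within 1 kb of any of its annotated transcript starts, and the peak of highest fold enrichment stood for the gene when there were several. In all, 78 of 69730 peaks lay at these genes in the control list, 73 of 69333 in the siINO80#1 list and 64 of 53113 in the siINO80#2 list.

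Accessible chromatin was mapped by ATAC-seq, in which a transposase cuts DNA that is not covered by nucleosomes and tags the ends for sequencing. HepG2 cells, a line from a human liver tumour, received either the control siRNA NTG or 1 of 2 siRNAs against INO80, named siINO80#1 and siINO80#2, at 50 nM for 72 hours. As far as the labels say, all groups shared the cell line, the transfection and the dose and differed in the siRNA. Each group had 3 replicates but was represented by 1 peak list, so the spread between replicates is unknown and differences are given without tests. Ranges in parentheses after a share are 95% Wilson intervals over genes, those after a ratio of pileups are 95% intervals of read counting alone, and those after a median are the quartiles of the genes. None of them covers the difference between replicates. The level of INO80 itself was not measured in these lists, and both siRNAs were compared with the same NTG list.

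Ribosomal protein genes are among the most strongly transcribed genes of any dividing cell, and the cell has to make their products in matched amounts. Their mRNAs carry a 5' terminal oligopyrimidine (TOP) tract, which begins with a C at the start site and places their translation under the control of the kinase mTOR. Their promoters are compact, usually lack a TATA box and use ETS factors such as GABPA, YY1, SP1 and NF-Y. INO80 is the ATPase of a complex that slides nucleosomes, and YY1 is a DNA-binding subunit of that complex. The question asked was how open these promoters were in HepG2 cells and whether their peaks differed after either siRNA against INO80.

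The start region of 8 genes, from 160 bases before the start to 20 bases after it, shows the range of these promoters. The sequences are read in the direction of transcription from GRCh37 with GENCODE starts, and capitals mark the pyrimidine tract and matches to the motifs described below. RPL34 and RPS3A held the strongest control peaks, RPLP0 and RPLP1 encode stalk proteins, RPS16 and RPS28 had no peak in any list, and RPS6 and RPS19 hold the palindrome recognised by the factor BANP.
RPL34 (strongest peak, chr4:109541572-109541751, plus strand): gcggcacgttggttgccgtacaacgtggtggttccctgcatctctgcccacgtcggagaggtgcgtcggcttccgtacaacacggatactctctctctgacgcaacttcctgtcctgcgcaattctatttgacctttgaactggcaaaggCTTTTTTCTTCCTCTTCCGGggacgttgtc
RPS3A (no pyrimidine tract, chr4:152020620-152020799, plus strand): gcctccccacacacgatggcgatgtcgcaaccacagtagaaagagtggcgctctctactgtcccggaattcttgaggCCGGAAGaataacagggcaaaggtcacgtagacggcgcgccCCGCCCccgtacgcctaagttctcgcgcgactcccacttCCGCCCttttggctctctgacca
RPLP0 (TATA box, chr12:120638895-120639074, minus strand): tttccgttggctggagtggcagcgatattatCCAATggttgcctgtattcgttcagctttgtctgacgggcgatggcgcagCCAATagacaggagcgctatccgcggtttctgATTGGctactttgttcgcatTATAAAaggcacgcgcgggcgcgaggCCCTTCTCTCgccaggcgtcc
RPLP1 (lower in both siINO80 lists, chr15:69744997-69745176, plus strand): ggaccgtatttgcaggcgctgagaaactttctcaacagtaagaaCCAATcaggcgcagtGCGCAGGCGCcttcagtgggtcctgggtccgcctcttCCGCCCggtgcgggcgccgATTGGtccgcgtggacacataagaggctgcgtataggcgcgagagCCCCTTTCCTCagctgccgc
RPS16 (no peak, chr19:39926570-39926749, minus strand): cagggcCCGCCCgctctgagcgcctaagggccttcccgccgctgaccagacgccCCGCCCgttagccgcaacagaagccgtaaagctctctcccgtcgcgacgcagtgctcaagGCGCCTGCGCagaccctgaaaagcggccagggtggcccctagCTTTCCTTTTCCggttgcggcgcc
RPS28 (no peak, TATA box, chr19:8386220-8386399, plus strand): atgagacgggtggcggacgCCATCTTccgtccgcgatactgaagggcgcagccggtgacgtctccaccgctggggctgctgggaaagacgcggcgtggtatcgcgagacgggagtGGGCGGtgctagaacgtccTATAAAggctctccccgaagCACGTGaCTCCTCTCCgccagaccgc
RPS6 (palindrome, chr9:19380215-19380394, minus strand): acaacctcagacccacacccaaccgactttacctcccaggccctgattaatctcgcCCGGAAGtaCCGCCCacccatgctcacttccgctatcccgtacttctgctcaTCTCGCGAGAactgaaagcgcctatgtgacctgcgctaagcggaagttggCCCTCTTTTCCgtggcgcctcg
RPS19 (palindrome, lower in siINO80#1, chr19:42364165-42364344, plus strand): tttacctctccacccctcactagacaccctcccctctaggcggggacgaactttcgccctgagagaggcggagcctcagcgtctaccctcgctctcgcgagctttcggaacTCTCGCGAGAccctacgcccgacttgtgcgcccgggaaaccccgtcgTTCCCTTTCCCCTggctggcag
RPL34 has an unbroken run of pyrimidines, CTTTTTTCTTCCTCTTCC, from position -10 to 8, with position 1 as the first transcribed base, and its last letters overlap a match to the ETS motif. RPS3A has no such tract, and the G of a GC box from -3 to 3 lies among the pyrimidines at its start. RPS16 resembles the accessible members in these letters, with the tract CTTTCCTTTTCC from -4 to 8 and an NRF1 match. RPS28 has the tract, the TATA box and the YY1 motif and likewise had no peak.

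Across all members, the pyrimidine tract was the most frequent of the features searched. A run of at least 8 C or T on the transcribed strand that overlapped positions -10 to 10 was found in 65 of 73 genes, or 89.0% (79.8 to 94.3), against 14.5% of all protein-coding genes and 12.8% of the 78 genes of mitochondrial ribosomal proteins. The start base was C in 80.8% of the ribosomal protein genes and in 10.7% of all genes. Among the genes without the tract were RPL12, RPL15, RPL27, RPL3, RPL32, RPL36 and RPS3A. The longest tract, 25 bases, belonged to RPL7A.

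Other motifs were searched on both strands from 250 bases before to 50 bases after the start. The YY1 motif CCATNTT was found in 22 genes, or 30.1% (20.8 to 41.4), against 14.6% of all genes, and the ETS motif CCGGAAG in 25 genes, or 34.2% (24.4 to 45.7), against 14.1%. Both were at least as frequent in the mitochondrial ribosomal protein genes, at 41.0% each, and were thus not particular to the cytosolic ribosome. The GC box GGGCGG of SP1 and KLF factors (57.5% against 61.3%), the NF-Y motif CCAAT (34.2% against 35.7%) and the E-box CACGTG (6.85% against 8.65%) were close to the share of all genes. The palindromic NRF1 motif was found in 13.7% against 8.41% and the full cyclic AMP response element in 5.48% against 2.70%, which are 10 and 4 genes. TATAAA between -40 and -15 on the transcribed strand was found in 3 genes, RPLP0, RPS2 and RPS28, or 4.11% against 3.92% of all genes. The BANP palindrome was found in 5 genes, or 6.85% (2.96 to 15.1), against 0.634% of all genes and 1.28% of the mitochondrial ribosomal protein genes. It lay from -52 to -43 in RPS6, from -49 to -40 in both RPS19 and RPL26 and from -65 to -56 in RPL17. A match describes the letters of these windows and is no evidence that a factor was bound.

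**Figure D1:**
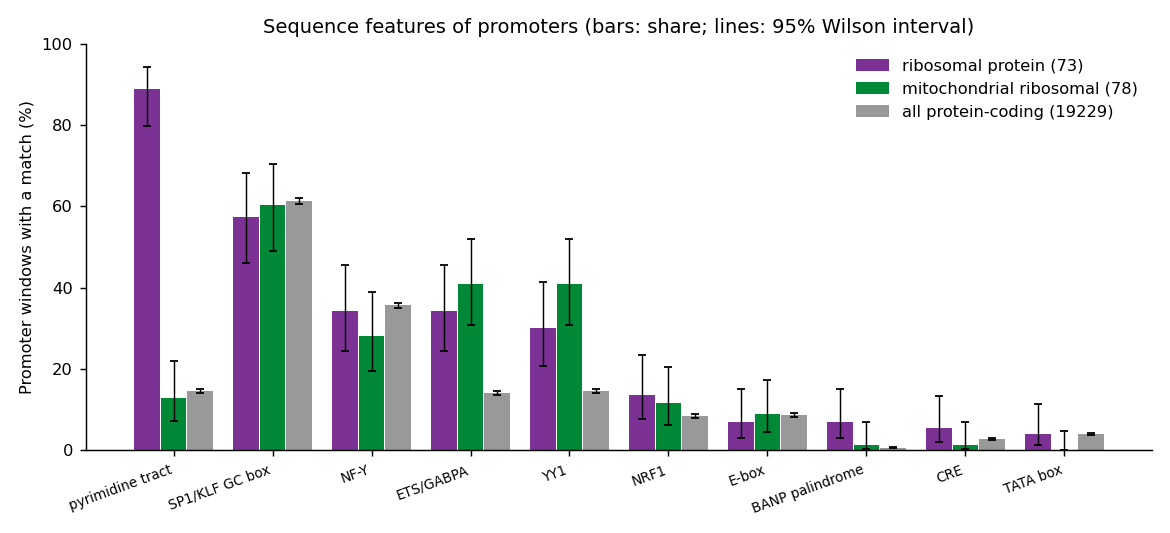
Share of promoter windows with each sequence feature (%, bars) and its 95% Wilson interval (lines) in ribosomal protein genes, mitochondrial ribosomal protein genes and all protein-coding genes. The pyrimidine tract stands at 89.0% in ribosomal protein genes, far above the other gene lists, whereas the GC box and NF-Y shares are close to those of all genes.

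Most ribosomal protein promoters were accessible in control cells. In the NTG list 68 of 73 genes had a peak, or 93.2% (84.9 to 97.0), against 62.4% of all protein-coding genes. The siINO80#1 list held peaks at 67 genes, or 91.8% (83.2 to 96.2), against 61.8% of all genes, and the siINO80#2 list at 59 genes, or 80.8% (70.3 to 88.2), against 55% of all genes. A peak in all 3 lists was found at 57 genes, against 52.6% of all genes, and these 57 are 78.1% of the members. Shares of the same size were found for mitochondrial ribosomal protein genes, at 91.0%, 88.5% and 83.3% in the same order, and for proteasome subunit genes, at 92.1%, 94.7% and 89.5%. The siINO80#2 list is the smallest list, and when every list was reduced to the 53113 strongest peaks the members with a peak numbered 61, 60 and 59, or 83.6%, 82.2% and 80.8%, against 57.3%, 56.4% and 55% of all genes. With the representative start alone, 67, 67 and 58 members had a peak, or 91.8%, 91.8% and 79.5%. The shares of all genes were then 57.1%, 56.9% and 50.2%. The only NTG peak and the only siINO80#2 peak of RPL36 lay at another annotated start, with summits at -9674 and -9677 bases from the representative start.

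Genes with an NTG peak mostly kept one in the siINO80 lists. In the siINO80#1 list 2 of 68 genes had no peak, RPL29 and RPS27, or 2.94% against 6.61% of all genes with an NTG peak. In the siINO80#2 list 10 of 68 genes had none, or 14.7% against 14.5%. Among these, RPL29 had a peak in NTG alone, and RPL28, RPL12, RPL23A, RPL38, RPS15, RPS10, RPS2 and RPS21 had one in NTG and siINO80#1. Over the genes named here the NTG fold enrichments ran from 2.39 at RPL29 to 3.77 at RPL28, below the median of 4.87 over all members with a peak. Among the 5 genes without an NTG peak, RPL19 had a peak in siINO80#1 alone (chr17:37356351-37356609, fold enrichment 2.22), RPL7A in siINO80#2 alone (chr9:136214825-136215161, fold enrichment 2.35), and RPS16 and RPS28 in no list, while over all genes without an NTG peak 9.24% had one in siINO80#1 and 4.47% in siINO80#2.

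The surroundings of RPS16 and RPS28 were examined further. RPS16 encodes a small subunit protein and starts at position 39926589 of chromosome 19, and its nearest NTG peaks lay 23422 and 9515 bases away on either side. The nearest NTG peaks to RPS28, at position 8386380 of the same chromosome, lay 13125 and 34232 bases away. Of the 31-base words around the start, 6.30% at RPS28 and 0% at RPS16 occur more than once in GRCh37. No peak number was skipped between the flanking peaks of any gene that lacked a peak, whereas the lists as a whole skip 324 to 371 numbers.

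The members differed widely in the strength of their peaks. Fold enrichment, the reads at the summit plus 1 divided by the local background plus 1, had a median of 4.87 in NTG, 4.74 in siINO80#1 and 4.35 in siINO80#2, and ran from 2.39 to 13.4 in NTG. The strongest was RPL34, a large subunit protein gene on chromosome 4, whose NTG peak spanned chr4:109541201-109542123 in GRCh37 with a fold enrichment of 13.4 in NTG, 11.7 in siINO80#1 and 8.98 in siINO80#2. It ranked at the 99.6th, 99.0th and 97.3rd percentile of all peaks in these lists, where the percentile is the rank of a peak by fold enrichment, in percent of its list. RPS3A, of the small subunit, had values of 10.96, 8.30 and 8.54, RPL37 had 9.91, 10.7 and 8.79, and RPS20 had 9.27, 8.996 and 8.24. RPS29, whose product binds zinc, completed the 5 highest in NTG at 8.37, 9.43 and 8.52. The order differed between lists, and in siINO80#1 RPS27A, RPS6 and RPSA stood above RPS29, RPS20 and RPS3A. The percentiles of these 5 genes ran from 94.5 to 99.6 over the 3 lists.

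By NTG fold enrichment, the weakest peaks among genes accessible in all 3 lists were those of RPL41, RPL14, RPL13, RPL3 and RPL8. RPL41, which encodes the shortest ribosomal protein, had fold enrichments of 2.57, 3.29 and 2.81. RPL14 had 2.66, 4.76 and 2.62, RPL13 had 2.75, 2.98 and 2.67, RPL3 had 2.77, 2.34 and 3.37, and RPL8 had 2.78, 3.16 and 2.14. Their percentiles ran from 2.501 at RPL8 in siINO80#2 to 55.8 at RPL3 in siINO80#2, apart from 77.0 at RPL14 in siINO80#1. RPL3 lies near the catalytic centre of the large subunit, and a weak peak was thus found at a gene of the ribosomal core.

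Members with a known role outside or at the edge of the ribosome did not share a common level. The stalk proteins, which recruit translation factors, differed among themselves, with NTG fold enrichments of 6.70 at RPLP0, 6.52 at RPLP1 and 2.85 at RPLP2. RPL5 and RPL11, which carry the 5S RNA and restrain MDM2 when free of the ribosome, had 7.51 and 5.70 in NTG, 5.83 and 5.05 in siINO80#1, and 4.90 and 4.35 in siINO80#2. RPS6, the substrate of the S6 kinases, had 8.25, 9.94 and 6.03. RPS19, the gene most often mutated in Diamond-Blackfan anaemia, had 5.11, 2.71 and 3.33, and RPS14, whose loss marks the 5q- syndrome, had 4.82, 5.92 and 5.16. RPSA, also known as a laminin receptor, had 8.36, 9.89 and 7.13. RPS27A, made as a fusion with ubiquitin, had 7.66, 11.3 and 7.77, and RPL4, which lines the exit tunnel, had 5.11, 3.99 and 3.31. The stalk genes alone spanned weak and strong peaks.

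**Figure D2:**
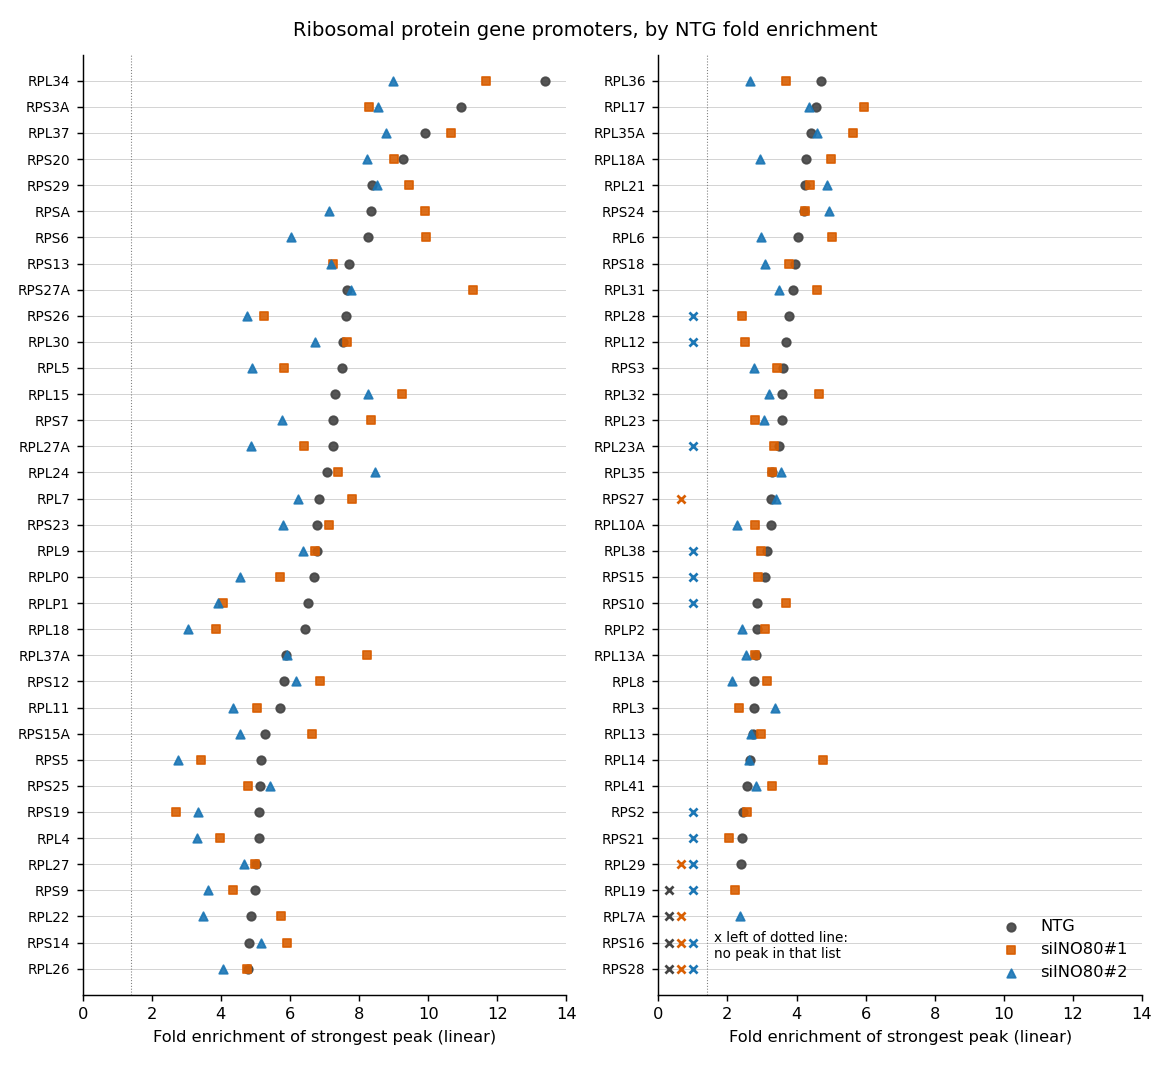
Fold enrichment (linear scale) of the strongest peak of ribosomal protein genes in the NTG, siINO80#1 and siINO80#2 lists, ordered by the NTG value, with crosses left of the dotted line for a list without a peak. RPL34 leads at 13.4 in NTG, and the genes without a peak in some list lie mostly at the weak end.

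Set against all genes with a peak, ribosomal protein promoters had slightly lower median ranks. Ranked by fold enrichment among all peaks of a list, their median percentile was 75.1 (54.6 to 88.9) in NTG, 76.8 (54.0 to 90.3) in siINO80#1 and 73.6 (46.5 to 88.2) in siINO80#2. The medians over all protein-coding genes with a peak were 79.6, 79.1 and 75.98, those of mitochondrial ribosomal protein genes 81.2, 81.4 and 78.6, and those of proteasome genes 80.9, 75.04 and 79.6. A place among the top 10% of a list was held by 16, 18 and 12 members, or 23.5%, 26.9% and 20.3% of those with a peak, against 30.3%, 29.7% and 27.5% of all genes. Below the median peak of the list lay 23.5%, 22.4% and 27.1% of the members, against 18.3%, 19.5% and 22.8% of all genes. The small subunit genes had median percentiles of 77.8, 79.2 and 83.5 and the large subunit genes 69.7, 75.5 and 60.0, with overlapping ranges in each list.

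**Figure D3:**
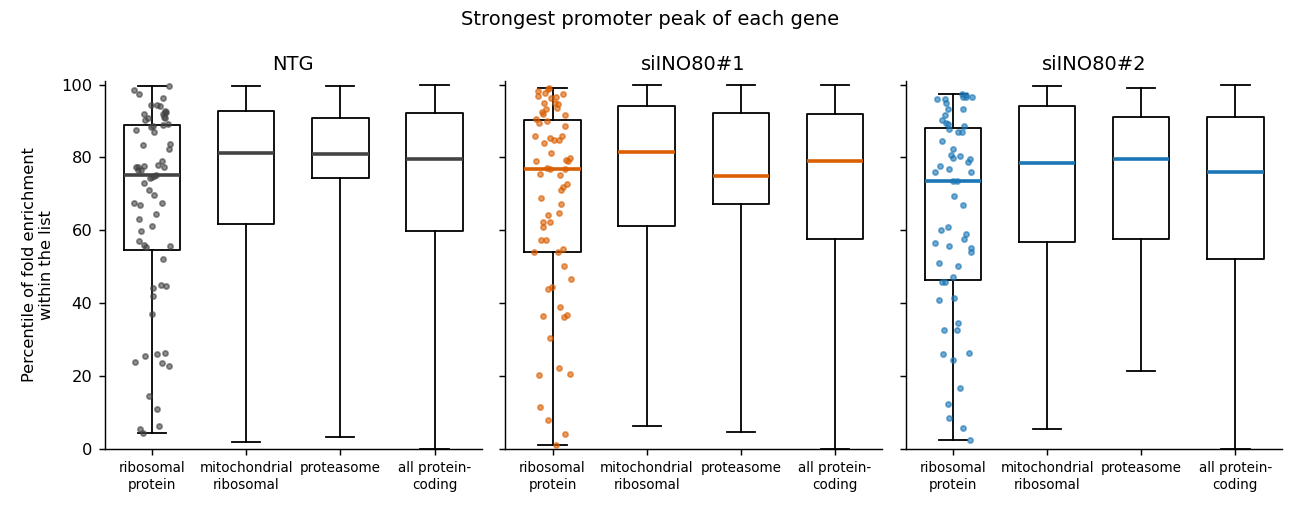
Percentile of fold enrichment within each list (vertical axis) for the strongest promoter peak of each gene, with boxes from the lower to the upper quartile, the median as a coloured line, whiskers to the lowest and highest gene, and points for the single ribosomal protein genes. The ribosomal protein medians of 75.1, 76.8 and 73.6 lie below those of all protein-coding genes in the 3 lists.

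The siINO80 lists were then compared with NTG gene by gene. The reads stacked at each summit, the pileup, were recovered from the deposited values, divided by the lowest background of the list and expressed as a log2 ratio over NTG. The strongest peak of a gene was taken in each list separately, so the pileups of a ratio can come from different regions. At RPL13A the summit lay at 2266 bases from the representative start in NTG, -224 in siINO80#1 and -207 in siINO80#2. At RPL6 it lay at -9563, -34 and -9084 in the same order. The median of all protein-coding genes was -0.15 in siINO80#1 and -0.48 in siINO80#2, and ratios are given relative to these medians. Ribosomal protein genes had a median log2 ratio of 0.15 (-0.12 to 0.32) over 66 genes in siINO80#1, with 43 genes above 0, and of 0.10 (-0.16 to 0.32) over 58 genes in siINO80#2, with 36 above 0. Of all genes, 49.8% and 47.8% were above 0. With peaks required to overlap by 50% the member medians were 0.18 and 0.12. Without the centring the medians were -0.0037 and -0.38, so the direction of the shift reversed without centring. The medians were 0.06 and 0.10 for mitochondrial ribosomal protein genes and -0.02 and 0.07 for proteasome genes.

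Few members passed a change of 1.5-fold, and their share was close to that of all genes. In siINO80#1, 4 of 66 genes were above this limit, or 6.06% against 4.65% of all genes, and 3 were below it, or 4.55% against 4.94%. In siINO80#2, 3 of 58 genes were above it and 3 below, or 5.17% each, against 5.55% and 6.25% of all genes. The only member below the limit in both lists was RPLP1, against 1.67% of all genes, and no member was above it in both, against 1.8% of all genes. No member passed 2-fold in either direction, and the share of all genes at that limit is not given here. The counting interval excluded an equal pileup at 3 members above and 2 below in siINO80#1 and at 1 above and 2 below in siINO80#2. These are 4.55%, 3.03%, 1.72% and 3.45% of the members, against 4.09%, 4.21%, 5.11% and 5.27% of all genes.

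RPLP1, whose product is an acidic protein of the ribosomal stalk, had summit pileups of 41 reads in NTG, 30 in siINO80#1 and 27 in siINO80#2. Relative to all genes this was a log2 ratio of -0.73, or 0.60-fold (0.36 to 0.99), in siINO80#1 and of -0.60, or 0.66-fold (0.39 to 1.097), in siINO80#2. Its fold enrichment, from which the pileups were recovered, was 6.52, 4.06 and 3.92 and is no separate observation. The medians over all protein-coding genes with a peak were 5.37, 5.01 and 4.54. The interval excluded 1 in siINO80#1 only, and narrowly.

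Other changes past the limit appeared in 1 siINO80 list only. RPL14 had 25 reads in NTG and 57 in siINO80#1, a log2 ratio of 0.91 (1.87-fold, 1.15 to 3.13), and had 29 reads and 0.21 in siINO80#2. RPS10 had a log2 ratio of 0.79 in siINO80#1 and no siINO80#2 peak. RPS15A, at 0.62, and RPS14, at 0.61, were above the limit in siINO80#1, and in siINO80#2 their values were 0.23 and 0.53, so that RPS14 was near the limit in both lists. RPS19 had 39 reads in NTG and 26 in siINO80#1, a log2 ratio of -0.87 (0.55-fold, 0.32 to 0.92), against -0.33 in siINO80#2. Its NTG peak, chr19:42363642-42364247, had its summit 521 bases before the start and ended before the palindrome shown above.

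In siINO80#2 the genes past the limit were different ones apart from RPLP1. RPL3 had a log2 ratio of 0.72, RPL24 of 0.66 (1.58-fold, 1.12 to 2.26) and RPL35 of 0.62, against -0.05, 0.22 and 0.19 in siINO80#1. RPL18 had -0.80 (0.58-fold, 0.37 to 0.89) and RPL27A had -0.59 (0.66-fold, 0.46 to 0.96), against -0.55 and -0.27 in siINO80#1. The RPL27A peak compared here lies 6181 bases after its representative start, at another annotated start. No gene passed the limit in opposite directions in the 2 lists. Each of the named changes kept its sign when the ratios were not centred, but no sign could change there. The median shift of all genes is smaller than the limit by which these genes were picked. The signs also held with the deposited fold enrichment, which comes from the same reads. Its centred log2 ratios in siINO80#2 were 0.58 at RPL3, 0.56 at RPL24 and 0.41 at RPL35. They were -0.78 at RPL18, -0.27 at RPL27A and -0.44 at RPLP1, so of these only RPL18 was still past 1.5-fold.

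Centred pileup ratios near 0 were found at the strongest promoter and at RPS12. RPL34, with 99 reads in NTG, 113 in siINO80#1 and 95 in siINO80#2, had log2 ratios of -0.09 (0.94-fold, 0.71 to 1.24) and -0.06 (0.96-fold, 0.72 to 1.28). This depends on the measure, because its fold enrichment was 13.4, 11.7 and 8.98 in the same order. The medians over all protein-coding genes with a peak were 5.37, 5.01 and 4.54. RPS12, with 92, 114 and 94 reads, had 0.03 in both. RPS27A differed more, with 92, 161 and 113 reads, a log2 ratio of 0.52 (1.44-fold, 1.11 to 1.88) in siINO80#1 and of 0.30 (1.23-fold, 0.92 to 1.64) in siINO80#2. Its summits lay at -395, -384 and -394 bases from its representative start. The opposite-strand gene CLHC1 has its representative start 395 bases from that of RPS27A, and the peak cannot be assigned to 1 of the 2 genes.

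The members on chromosome 19 stood below the others, a split chosen after the values were seen. This chromosome holds 12 ribosomal protein genes, and 10 of them had an NTG peak. Among these were RPL13A, whose NTG and siINO80 summits lay in different regions, and RPL36, whose NTG summit lay at -9674 bases from its representative start. The median log2 ratio of the chromosome 19 members was -0.31 in siINO80#1, with 7 of 10 genes below 0, and -0.32 in siINO80#2, with 6 of 8 below 0. The members on other chromosomes had medians of 0.20 and 0.17, and all protein-coding genes of chromosome 19 had 0.02 and 0.00. With the ratio of fold enrichment in place of pileup the chromosome 19 members had -0.30 and -0.32 and the others 0.13 and 0.13, and without centring the values were -0.46 and -0.80 against 0.05 and -0.31. The NTG percentile of the chromosome 19 members, 74.1, was close to the 75.8 of the others, whereas in siINO80#2 the values were 43.3 and 77.7. All genes of chromosome 19 had median percentiles of 65.4, 62.4 and 55.1.

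**Figure D4:**
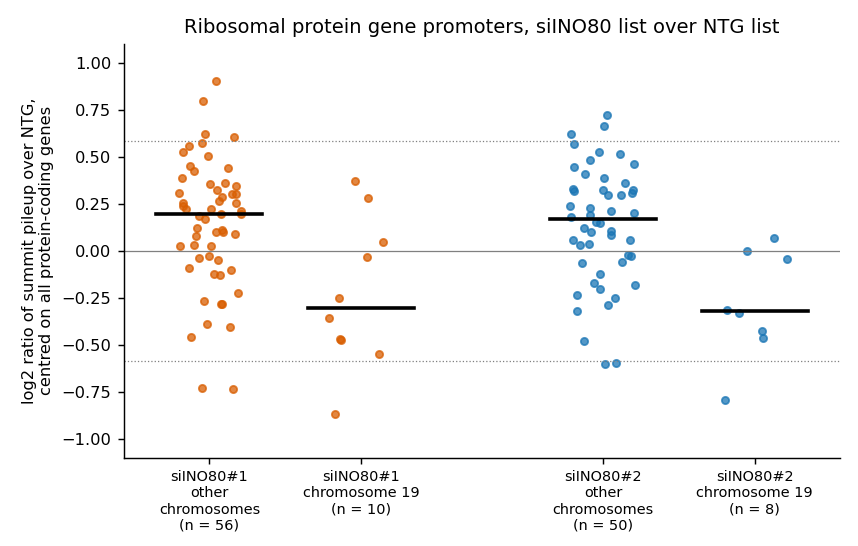
Log2 ratio of summit pileup over NTG, centred on all protein-coding genes, for ribosomal protein genes in each siINO80 list, with members on chromosome 19 shown apart, black lines for medians and dotted lines for 1.5-fold. The medians are 0.20 and 0.17 on other chromosomes and -0.31 and -0.32 on chromosome 19.

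Over all members with a peak, the peaks of ribosomal protein genes were somewhat narrower than those of all genes, and they were highest just upstream of the start. In the order NTG, siINO80#1 and siINO80#2 the median widths were 630.5, 716 and 628 bp, against 736, 760 and 679 bp over all genes. Over the 57 genes with a peak in all 3 lists, a choice made after the values were seen, the medians were 775, 776 and 640 bp. In NTG and siINO80#1 these were not below the 736 and 760 bp of all genes. The width over all genes with a peak in all 3 lists is not given here. The widest NTG peaks were those of RPL7, at 1708 bp, RPL9, at 1624 bp, and RPS12, at 1516 bp, and in siINO80#2 they measured 1585, 1338 and 1099 bp. RPL7 and RPL9 have a protein-coding start on the opposite strand within 1 kb, RDH10 at 969 bases and LIAS at 134 bases, and RPS12 has none.

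The summit lay at a median of -127 bases from the representative start in NTG, -101 in siINO80#1 and -105.5 in siINO80#2, against -77, -76 and -80 over all genes. It was upstream of the start in 90.6%, 89.2% and 85.7% of the members, against 71.3%, 72.8% and 72.9% of all genes. Mitochondrial ribosomal protein genes had medians of -67, -93 and -69 bases and 67.2%, 74.6% and 63.5% upstream. Proteasome genes had -108, -83 and -84 bases and 81.8%, 71.4% and 78.8% upstream. Translation factors and other TOP genes had -253, -249.5 and -202 bases and 91.7%, 100% and 90.9% upstream, so that an upstream summit was not particular to the ribosomal protein genes. The interval held more than 1 summit at 63.2%, 52.2% and 45.8% of the members, against 56.1%, 59.5% and 54.7% of all genes. Measured from the nearest annotated start the member medians were -94.5, -79 and -67 bases. Summits more than 1 kb from the representative start, which were left out here, occurred at RPL13A, RPL27A, RPL36 and RPL6 in NTG.

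**Figure D5:**
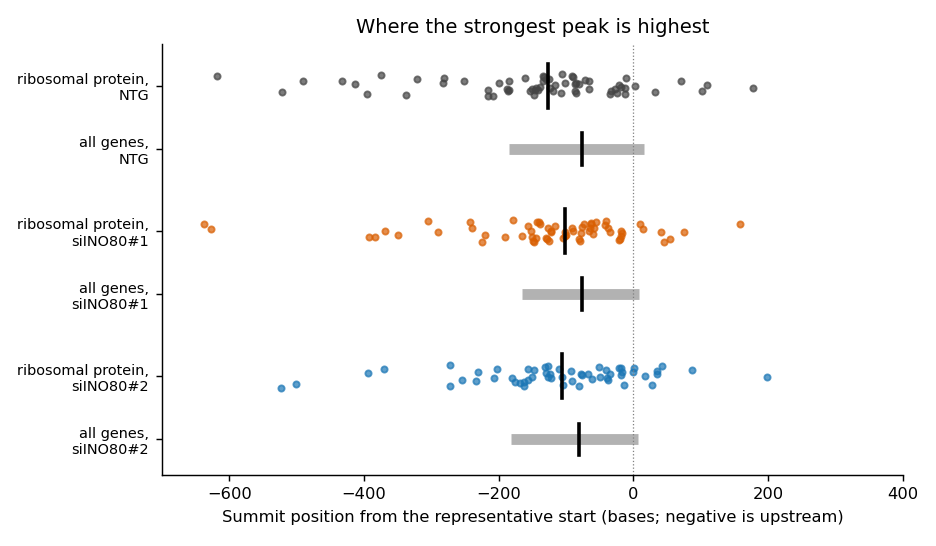
Position of the summit of the strongest peak in bases from the representative transcript start (horizontal axis) for single ribosomal protein genes (points, black line at the median), with the quartile range (grey bar) and median of all protein-coding genes below each list. The member medians of -127, -101 and -105.5 lie upstream of those of all genes.

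Neighbouring genes can contribute to a promoter peak. The strongest peak of 19, 17 and 17 members in the 3 lists was also within 1 kb of a start of another protein-coding gene, and no peak was shared by 2 members. A representative start on the opposite strand lay within 1 kb at 13 members, nearest at RPL7A (MED22, 87 bases), RPL12 (LRSAM1, 104), RPS28 (117), RPL27A (TRIM66, 127) and RPL9 (134). Of these 5, RPS28 had no peak, RPL7A a peak in siINO80#2 alone with a fold enrichment of 2.35, and RPL12 values of 3.69 in NTG and 2.51 in siINO80#1. RPL9 had 6.77, 6.74 and 6.39, and the strongest peak of RPL27A was not at the start it shares with TRIM66. The members with such a partner had median percentiles of 86.9, 77.1 and 79.6, against 74.3, 76.2 and 73.6 for the others. A small nucleolar RNA gene lay inside 27 members, whose median percentiles of 73.1, 74.1 and 73.6 were close to the 75.8, 77.0 and 74.8 of the rest. The shares of all genes with a shared peak, an opposite-strand start or a small nucleolar RNA gene are not given here. The member counts therefore do not set these genes apart from others.

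Within the members, fold enrichment was lower where the sequence was richer in G and C. Over the 2 kb around the start, the GC content had a median of 54.0% and ran from 44.7% at RPL34 to 67.5% at RPL8. Its Spearman correlation with fold enrichment was -0.31 over 68 genes in NTG, -0.50 over 67 in siINO80#1 and -0.40 over 59 in siINO80#2, against -0.31 over all genes in each list. The summit pileup over background had correlations of -0.06, -0.19 and -0.10, whereas the local background had 0.38, 0.45 and 0.45. Over all genes these were -0.08, -0.07 and -0.09 for the pileup and 0.30, 0.33 and 0.30 for the local background. The contrast was thus not particular to the members. These are correlations across genes of the same list, which share its depth and are no independent replicates.

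Members with and without a sequence feature overlapped in strength. Genes with the pyrimidine tract had median percentiles of 75.1, 77.0 and 73.6 and the 8 genes without it 74.8, 68.9 and 66.7. Genes with the YY1 motif had 64.4, 74.8 and 56.5 and genes without it 77.3, 76.8 and 74.8, with overlapping ranges. Their median log2 ratios over NTG were 0.21 and 0.22 with the motif and 0.11 and 0.08 without it. The few genes with an E-box ranked low, with median percentiles of 25.4 over 3 genes, 29.3 over 4 and 31.3 over 2, against 76.5, 77.1 and 75.98 without it. The 5 genes with the palindrome all had peaks in all 3 lists, with median percentiles of 75.1, 76.8 and 69.5.

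Genes that share the TOP signature or a ribosomal role without meeting the name rule were described by the same measures. FAU, whose protein is a fusion of a ubiquitin relative with a ribosomal protein, and RACK1, a scaffold on the small subunit, both carried the pyrimidine tract and had weak peaks. RACK1 had fold enrichments of 2.87, 3.61 and 2.78, and FAU had 2.51 in siINO80#1, 2.89 in siINO80#2 and no NTG peak. Translation factors and other TOP genes carried the tract in 13 of 16 cases and had stronger peaks than the ribosomal protein genes, with median percentiles of 91.8, 92.3 and 93.5 over 14, 14 and 13 genes. An example is EEF1A1, the elongation factor that delivers aminoacyl-tRNA, at fold enrichments of 7.33, 7.86 and 7.59. None of the TOP genes outside the ribosome passed 1.5-fold, over 14 genes with a ratio in siINO80#1 and 13 in siINO80#2. Of all genes, 4.65% were above and 4.94% below in siINO80#1, and 5.55% and 6.25% in siINO80#2. With so few genes, a count of 0 cannot be set apart from these shares.

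The paralogs of ribosomal proteins, which are often used in particular tissues, carried the tract in 1 of 6 cases. RPL22L1 had fold enrichments of 9.77, 9.13 and 6.79, RPL26L1 had 4.27, 5.34 and 4.65, RPL7L1 had 4.86, 3.74 and 3.98 and RPS27L had 6.31, 4.43 and 3.34. RPL3L, of striated muscle, and RPL10L, of testis, had no peak in any list. Ribosome assembly genes had a peak in 13 of 15 cases in each list, with median percentiles of 89.5, 85.2 and 84.6. Of these 13, 2 were above and 2 below 1.5-fold in siINO80#1, or 15.4% each, against 4.65% and 4.94% of all genes. In siINO80#2, 1 was above and 1 below, or 7.69% each, against 5.55% and 6.25% of all genes. The difference between such small counts and these shares was not tested. The gene below in siINO80#2 was WDR12, with a log2 ratio of -0.85. Its summit lay at -102956 bases from its representative start in NTG and at -279 in siINO80#2, so the ratio compares different regions. GAR1, of the box H/ACA particles, had a log2 ratio of 0.67 in both lists.

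The cell type was checked with marker genes. Of 10 hepatocyte genes, 10, 10 and 8 had a peak within 1 kb of an annotated start, and the 2 without a siINO80#2 peak were ALB and AFP. Of 6 marker genes of other cell types, 1 had a peak in NTG, 1 in siINO80#1 and 0 in siINO80#2. The lowest background of a list, which rises with the number of reads, was 3.82 reads in NTG, 5.16 in siINO80#1 and 5.34 in siINO80#2. The members nearest to the distance limit were an NTG peak at RPL31 957 bases from a start, with a fold enrichment of 2.20, and outside it an NTG peak 1105 bases from a start of RPL41, with 5.26.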

How the data were processed

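ATAC-seq libraries of HepG2 cells came from 9 samples, 3 for each siRNA, and the authors deposited 1 pooled narrowPeak list per siRNA. According to the submitters' processing notes the tools were Trim Galore 0.4.1, Bowtie2, SAMtools, MACS2 and deepTools 2.2.4 with build hg19. The peak calling parameters are not given in the sources used here, and the number of mapped reads is unknown. The deposited columns hold a fold enrichment ratio, a -log10 p-value, a -log10 q-value, an integer score and the summit offset. The lists skip 324, 371 and 334 peak numbers, so peaks were removed after calling.

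Rows of the same interval were joined, which gave 69730, 69333 and 53113 peaks. The whole-number summit pileup and the local background were recovered from the fold enrichment and p-value, with an error of at most 0.00121 in -log10 p, while the next whole number missed by at least 0.00728. Genes and starts were taken from GENCODE release 44 on GRCh37. A promoter window ran from 250 bases before to 50 after the start. The 8 printed windows were also found unchanged in the RefSeq promoter table, which matched 58 of 73 members. Scripts ran in Python 3.11.15 with scipy 1.17.1, numba 0.67.0, pandas 2.3.3, matplotlib 3.10.9 and numpy 2.4.6 and were tested on simulated data. Ranges are 95% Wilson intervals for shares, quartiles for medians and exact conditional Poisson intervals for pileup ratios. With 1 list per group no test was made.

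The members and gene lists were chosen with earlier results of these data known. Named genes were those without a peak in some list, the 5 strongest and 5 weakest with a peak in all lists, those past 1.5-fold in both siINO80 lists, the 3 widest, genes with textbook roles and the 5 with the nearest opposite-strand start. The rule allowed up to 10 genes without a peak, and more are named. Results of some genes are not reported here. Genes past the limit in 1 list, RPL6, RPL27A, the chromosome 19 members and the genes with an E-box were named or split after their values were seen.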

Additional observations from a re-analysis of the deposited data

Results flagged for a closer look

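The median percentile of the ribosomal protein genes was 1.79 points higher in siINO80#1 than in NTG and 1.42 points lower (a difference of -1.42) in siINO80#2. The median peak width was 85.5 bp larger in siINO80#1 and differed by -2.5 bp in siINO80#2. These are the summary measures in which the siRNAs moved opposite ways, and the difference was not tested because each group had 1 list. Over the 57 genes with a peak in all 3 lists the median widths were 775, 776 and 640 bp and the median percentiles 77.3, 79.2 and 75.98.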

How the results depend on the processing

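No paired analysis was possible because each deposited list pools the replicates of its siRNA, and for the same reason no replicate could be left out. Of 131 alternative values, 109 kept their direction and moved little, 20 moved and 2 reversed. With the 10000 strongest peaks of each list, 22, 22 and 20 members had a peak, or 30.1%, 30.1% and 27.4% against 24.6%, 24.1% and 23.4% of all genes, so the excess over all genes was smaller there, and 16 had one in all 3 lists. Without centring the median log2 ratios reversed to -0.0037 in siINO80#1 and -0.38 in siINO80#2, with 2 genes above and 7 below 1.5-fold in siINO80#1 and 0 above and 16 below in siINO80#2. The medians of all genes before centring were lower still, at -0.15 and -0.48. Restricted to peaks with a -log10 q of 5 or more, 2 genes were above and 1 below in siINO80#1. With the ratio of fold enrichment, 2 genes were above in siINO80#1 and 0 in siINO80#2. At a 2-fold limit all 4 counts were 0. The shares of all genes past the limit are not given for these alternative ratios, so these counts do not set the members apart from other genes. The YY1 motif was found in 34 members when the window began 500 bases before the start. In a window from 100 bases before the start NRF1 was found in 6, the cyclic AMP response element in 2 and the E-box in 3. Alternatives chosen after seeing the data gave medians of 0.20 and 0.17 without chromosome 19 and 0.19 and 0.10 over genes with a peak in all 3 lists. Pileups of 12 to 15 reads were the lowest in the lists, so weak promoters carry wide counting intervals, and a gene without a peak is not shown to be closed.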
